A study of Rattus norvegicus with 15 samples.

Results

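Octoploid (8c) rat hepatocytes were compared with tetraploid (4c) hepatocytes, the second step of polyploidization in the series. The members were the 5 arrays of 8c cells and the 5 arrays of 4c cells, 10 of the 15 arrays in all, taken by their titles and paired by experiment number. Both groups were hepatocytes of female Wistar rats, with no treatment or genetic change named in the labels. The cells were stained with the DNA dye Hoechst33342 and separated by flow cytometry on their DNA content. Experiments 1 to 5 used animals of 12, 14, 6, 5 and 6 weeks, and each gave 1 array of 4c cells, 1 of 8c cells and 1 of diploid (2c) cells. How many animals stood behind an experiment, how gates were set and whether doublets were removed are not given in the sources used here. By DNA content an octoploid cell and a tetraploid cell that has replicated its DNA cannot be told apart. The p-values measure how far the differences between fractions varied over these 5 experiments, after the level of each experiment was taken out. The 2c arrays enter that estimate.

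Hepatocytes become polyploid when they replicate their DNA and then fail to complete cell division, so a binucleate or a larger mononucleate cell results. A cell that divides first makes deoxynucleotides and replicates its genome, then switches on the kinase Cdk1 with its cyclins, condenses its chromosomes, attaches them to a spindle and cleaves. Transcription of the genes for these late steps is driven by the MuvB complex with B-Myb and Foxm1, which acts through a short promoter element called the cell cycle homology region (CHR), often next to CCAAT boxes, while genes of replication are E2F targets.

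Genes of mitosis and cytokinesis made up 56 of the 107 features that were higher in 8c than in 4c cells. Of 16794 tested features, 107 were higher in 8c cells (0.637%) and 2 were lower (0.0119%) at an adjusted p under 0.05 in limma, with all 15 arrays in the fit and the experiment as a block. Of the 107, 94 had a gene symbol, 68 were members of the 12 cell cycle lists, 56 of these of the 6 lists of mitosis, and 0 were members of any of the other lists. The remaining features were 26 with a symbol outside the cell cycle lists and 13 without a symbol. Their differences ran from 0.33 to 4.29 on the log2 scale with a median of 2.04, and 79 were at least 2-fold. With normexp background correction the median of the same 107 was 0.6, and 59 of them passed. That setting adds an offset of 50 to each signal, while the median signal of an array was 3.85 to 7.8. Such an offset shrinks the log2 differences of dim probes. At an unadjusted p under 0.05, 773 features were higher (4.6%) and 535 lower (3.19%). All 107 were higher in 8c cells in 5 of 5 experiments, as were 8.83% of all tested features. In 23 of them every 8c array lay above every 4c array, as in 0.339% of all features, while in 0.22% of all features every 8c array lay below every 4c array. The calls rest on the 2c arrays, which add to the estimate of the spread: with the 10 arrays of 4c and 8c alone 0 features passed (lowest adjusted p = 0.0566 in limma; 908 higher and 774 lower at an unadjusted p under 0.05), and without the block 2 passed. Leaving out experiment 1, 3, 4 or 5 gave 49, 51, 51 or 50 features higher in 8c cells, and leaving out experiment 2 gave 121. All 107 kept their direction in each of these fits, which was fixed in advance by their rise in 5 of 5 experiments.

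**Figure D1:**
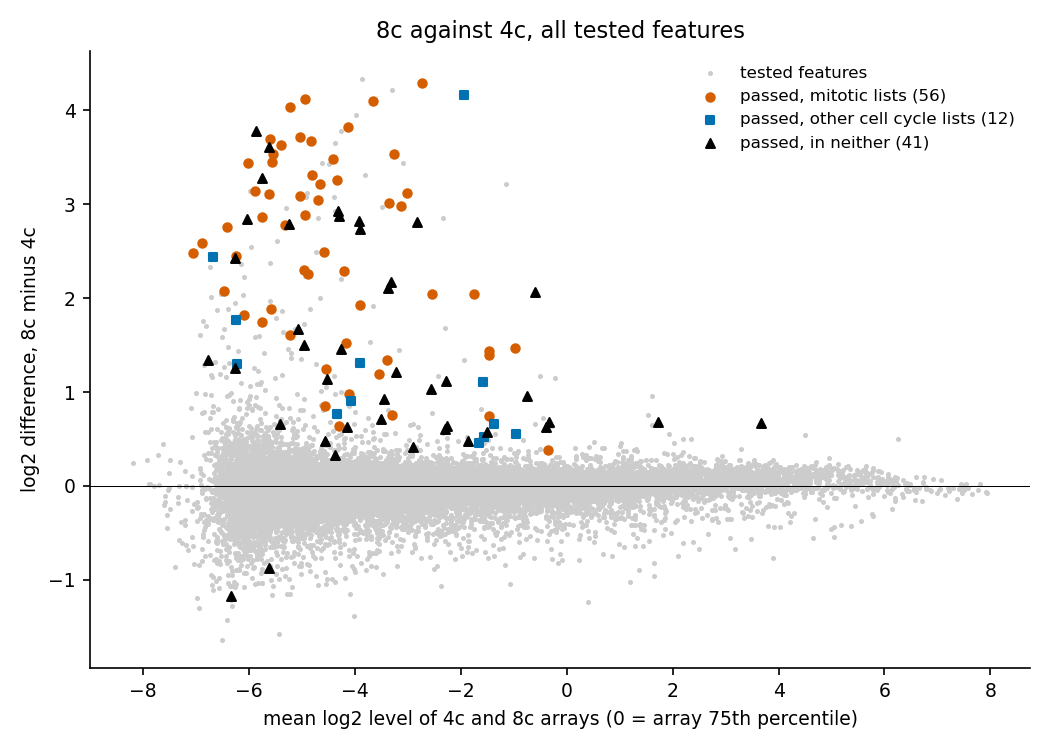
Log2 difference of 8c minus 4c (vertical axis) against the mean log2 level of the 4c and 8c arrays (horizontal axis, 0 is the 75th percentile of an array) for 16794 features. Coloured and black points passed at an adjusted p under 0.05, 107 above 0 and 2 below it, and the 56 members of the mitotic lists reach 4.29; grey points did not pass.

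Cdk1, whose kinase activity takes a cell into mitosis, had the largest difference of the features that passed. Its probe, a 60-base oligo read from the deposited files and shown because it carries the largest value, lies at chr20:20043755-20043814 of the rn4 assembly on the plus strand.
Cdk1 probe: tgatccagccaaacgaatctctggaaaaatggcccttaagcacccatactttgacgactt
On a log2 scale on which 0 is the 75th percentile of the array, the Cdk1 level in 4c cells of experiments 1 to 5 was -4.96, -7.81, -4.74, -2.09 and -4.81. In 8c cells it was -0.26, -2.88, -0.14, 0.13 and 0.19. The 4c array of experiment 2 was not well above background, a flag of the scanner software, and the 4c array of experiment 4 stood highest of its group, so that the groups overlapped through experiments 2 and 4 alone. The fitted difference was 4.29 (SE 0.34, adjusted p = 0.000409 in limma), or at least 16.1-fold with the dim array set to the lowest measurable level.

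In the list of the Cdk1 and cyclin engine, 12 of 23 tested members rose and 0 fell, with a median difference of 1.24 beside 0.0 for all tested features. Over the 10 members measured on all 10 arrays the median was 0.21, and 3 of them rose. Ccnb1, the mitotic B-type cyclin, had levels of -7.63, -7.87, -6.54, -4.59 and -6.69 in 4c cells and of -2.47, -5.36, -2.25, -2.47 and -2.37 in 8c cells. It was well above background on 1 of 5 4c arrays and on 5 of 5 8c arrays, and only the 8c array of experiment 2 lay below a 4c array. It rose by 3.68 (SE 0.40, adjusted p = 0.00151), at least 9.15-fold. Ccna2, the A-type cyclin of replication and early mitosis, was well above background on 1 of 5 4c arrays and rose by at least 3.33 on the log2 scale (adjusted p = 0.00109), and Ccnb2 at least 7.92-fold. Plk1, a kinase of mitotic entry and spindle assembly, rose at least 11.6-fold (log2 difference 3.53, SE 0.30, adjusted p = 0.000529), from levels of -6.18 to -3.19 in 4c cells to -3.51 to -0.76 in 8c cells. Bora, a cofactor for activating Plk1, rose by 0.98 and Cks2, a small Cdk subunit, by 0.75. Mastl, the kinase that restrains a mitotic phosphatase, was above background on 0 of 5 4c arrays and rose at least 2.19-fold (adjusted p = 0.0155). Tpx2, which activates Aurora A on the spindle, rose at least 2.92-fold (adjusted p = 0.0168). The other 11 members did not pass. Pkmyt1, which inhibits Cdk1, also rose (1.24, SE 0.14, adjusted p = 0.00214).

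Foxm1, a transcription factor for mitotic genes, was measured on all 10 arrays. Its level was -4.46, -4.18, -3.94, -3.48 and -4.26 in 4c cells and -2.76, -3.76, -2.41, -2.33 and -2.35 in 8c cells, so the groups overlapped only through the 8c array of experiment 2. It rose 2.54-fold (log2 difference 1.34, SE 0.19, adjusted p = 0.00994). Aurka, another mitotic kinase, gave probes that disagreed. Its brightest probe differed by -0.06 (SE 0.17, adjusted p = 0.947), while its other probe differed by 2.05 (SE 0.23, unadjusted p = 3.65e-06).

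**Figure D2:**
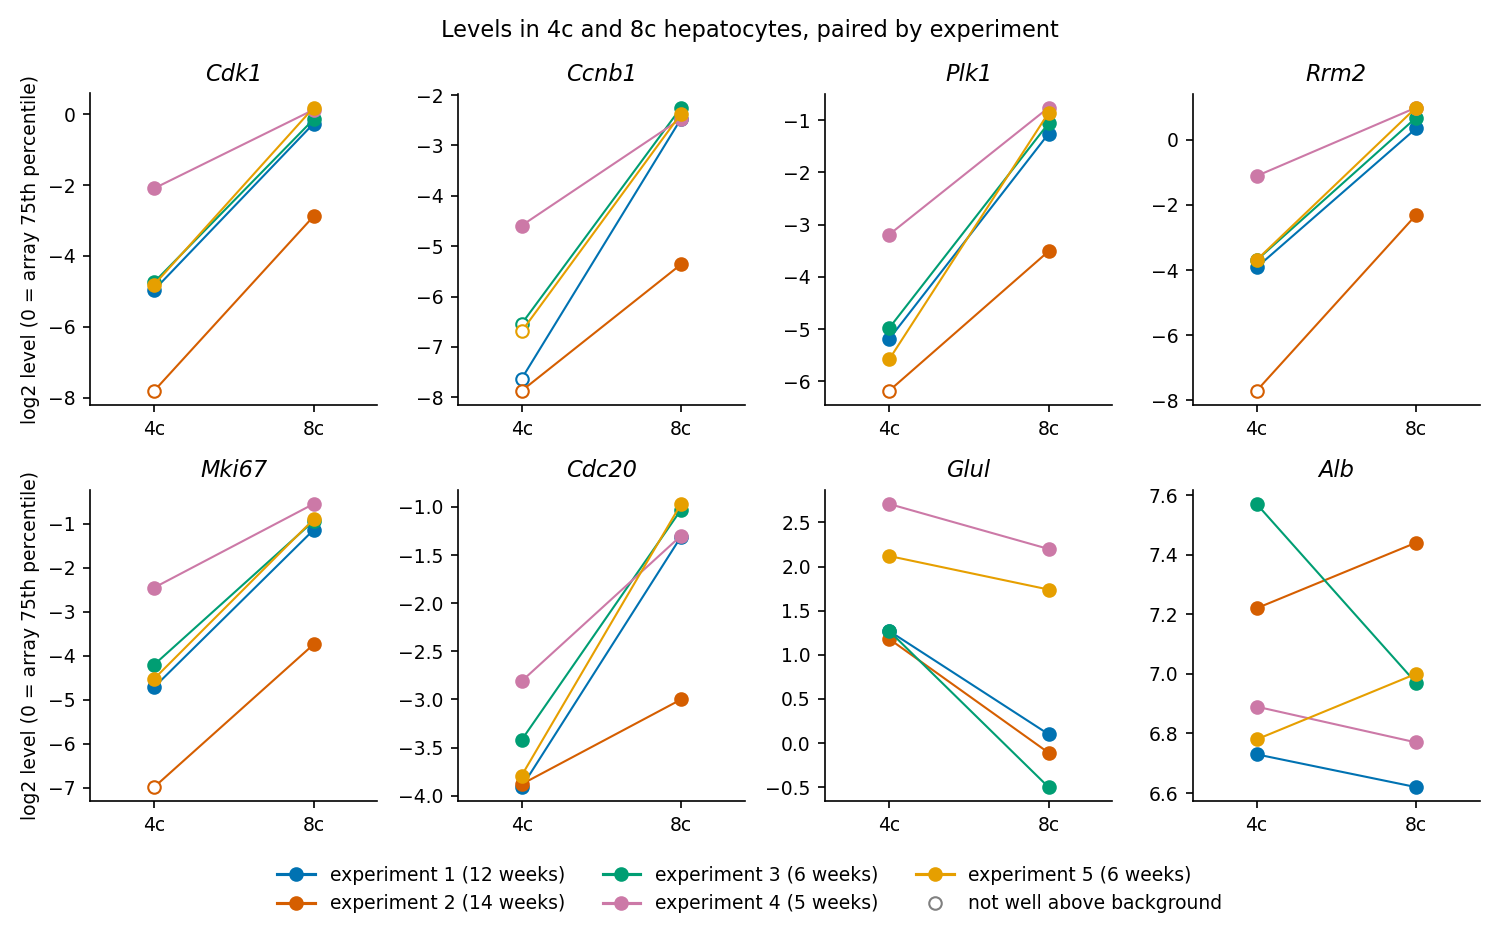
Log2 level (vertical axis, 0 is the 75th percentile of the array) in 4c and 8c cells for 8 genes, with a line for each of the 5 experiments and open circles where a probe was not well above background. The 6 cell cycle genes rise in every experiment and start highest in the 4c cells of experiment 4; Glul is lower in 8c cells in 5 of 5 experiments, and Alb moves in both directions.

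Genes of chromosome attachment gave the most calls of the mitotic lists, in the list with the most tested members. In the kinetochore and checkpoint list 15 of 28 tested members rose and 0 fell (median difference 1.38). Over the 11 members measured on all 10 arrays the median was 0.19, and 3 of them rose. Among the 15 were Ndc80, Nuf2 and Spc25, subunits of the Ndc80 complex that binds microtubules, with rises of at least 5.87-fold, 4.26-fold and 7.20-fold. Spc24, the remaining subunit of that complex, was above background on all 10 arrays and rose 4.12-fold (SE of the log2 difference 0.29, adjusted p = 0.00914). The checkpoint kinases Bub1 and Ttk rose at least 4.88-fold and 5.13-fold. Of the centromere proteins, Cenpt rose at least 5.68-fold, Cenpw at least 7.15-fold, and Hjurp, the chaperone that loads the centromeric histone, at least 6.73-fold. Cenpm, measured on all 10 arrays, rose by 0.39 (SE 0.06, adjusted p = 0.0254).

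In the spindle list 10 of 21 tested members rose and 0 fell (median 1.67). Over the 8 members measured on all 10 arrays the median was 0.39, and 2 of them rose. Knstrn and Spag5, which act together at spindle and kinetochore, rose at least 11.3-fold and 6.99-fold. Nusap1, which bundles microtubules, went from levels between -7.47 and -4.23 in 4c cells to levels between -4.72 and -1.80 in 8c cells. Its difference was 3.26 (SE 0.26, adjusted p = 0.000409), at least 8.17-fold. Nek2, a kinase that separates centrosomes, rose at least 8.95-fold, and the microtubule protein Tacc3 by 1.47. Aspm, which focuses spindle poles and was above background on all 10 arrays, rose 3.82-fold (SE of the log2 difference 0.26, adjusted p = 0.00637). The spindle motors Kif18b and Kifc1 rose at least 5.81-fold and 4.40-fold, and Dlgap5, which stabilises spindle fibres, at least 5.11-fold. Tacc3 levels were -2.37 to -1.20 in 4c cells and -1.17 to 0.02 in 8c cells, with no overlap.

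Genes of cytokinesis, the step that a polyploidizing hepatocyte does not complete, rose as well. In this list 10 of 17 tested members rose and 0 fell, with a median of 2.01, or 0.53 over the 6 members measured on all 10 arrays. Prc1, which bundles the microtubules of the central spindle, had levels of -7.65, -8.28, -7.98, -5.13 and -7.19 in 4c cells and -2.90, -5.37, -2.74, -2.47 and -2.57 in 8c cells. It was well above background on 1 4c array, and rose by at least 8.81-fold (log2 difference 4.04, SE 0.42, adjusted p = 0.00134; its other probe gave 2.87). Ect2, an exchange factor that acts at the cleavage site, rose by 3.72 (SE 0.40, adjusted p = 0.00151), at least 8.21-fold. Its partners in the centralspindlin complex, Racgap1 and Kif23, also rose. The Racgap1 probe measured on all 10 arrays gave 1.52 and its other probes, dim on 4 of 5 4c arrays, 2.95 and 3.05. Kif23 was above background on 1 4c array and rose at least 2.93-fold. Anln, a scaffold of the contractile ring, was measured on all 10 arrays and rose 2.28-fold, from levels between -4.68 and -3.44 to levels between -3.90 and -2.27. Cep55, needed for the final cut, rose by at least 2.17 on the log2 scale, and the kinesin Kif20a at least 7.45-fold. Birc5, a subunit of the chromosomal passenger complex, did not pass (1.73, SE 0.36, adjusted p = 0.089), while Incenp of the same complex rose at least 4.11-fold. Birc5 was looked up after the values had been seen.

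In the list of the anaphase-promoting complex and mitotic exit, genes that end mitosis, 3 of 18 tested members rose and 0 fell (median 0.12). Of all tested features 0.637% rose. These 3 were Cdc20, an activator of the complex, Pttg1 (securin), which holds the separase, and Espl1, the separase itself. Cdc20 levels were -3.91, -3.88, -3.42, -2.81 and -3.79 in 4c cells and -1.31, -3.00, -1.03, -1.30 and -0.97 in 8c cells. The 8c array of experiment 2 alone lay below a 4c array, and the gene rose 4.11-fold (SE of the log2 difference 0.26, adjusted p = 0.00505). Pttg1 rose 2.72-fold with no overlap between the groups.

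In the list of chromosome condensation and chromatin 7 of 18 tested members rose and 0 fell (median 0.64). Mki67, the common marker of cycling cells, had levels of -4.71, -6.98, -4.20, -2.45 and -4.52 in 4c cells and -1.14, -3.74, -0.94, -0.55 and -0.90 in 8c cells. As for Cdk1, experiment 4 was highest in the 4c group and experiment 2 lowest in both. Mki67 rose by 3.12 (SE 0.24, adjusted p = 0.000409), at least 8.03-fold, and its 4 probes gave differences of 2.62 to 3.12. Cdca3, a trigger of mitotic entry, rose at least 13.6-fold, and Cdca5 (sororin), which protects cohesion of sister chromatids, at least 3.85-fold (adjusted p = 0.0455). Top2a, the topoisomerase that untangles chromosomes, rose at least 5.75-fold, Hmgb2, a chromatin protein, 2.63-fold, and the condensin subunits Ncaph and Ncapd3 by 0.85 and 0.63. Their other probes gave 3.29 for Ncaph, dim on 4 of 5 4c arrays, and 0.18 (unadjusted p = 0.538) for Ncapd3.

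In the replication list 5 of 30 tested members rose and 0 fell, with a median of 0.32. Over the members measured on all 10 arrays the median was 0.27 for this list and 0.22 for the 6 mitotic lists together. Those that rose were the subunits Gins1 and Gins4 of the replicative helicase (0.90 and 0.76), the primase subunit Prim1 (0.46), Lig1, which joins Okazaki fragments (0.55), and the chromatin assembly factor subunit Chaf1b (at least 2.46-fold). Mcm2, a helicase subunit, had levels between -2.16 and -1.48 in 4c cells and between -2.23 and -1.36 in 8c cells, a difference of -0.07 (SE 0.12, adjusted p = 0.903). Pcna, the sliding clamp, was higher in 5 of 5 experiments, but by 0.25 only (SE 0.11, adjusted p = 0.637).

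Rrm2, the subunit of ribonucleotide reductase that is made in S phase, had the second largest difference of all features that passed. Its levels in 4c cells were -3.92, -7.71, -3.70, -1.11 and -3.69, and in 8c cells 0.35, -2.31, 0.68, 0.99 and 0.99. The 8c array of experiment 2 lay below the 4c array of experiment 4, and every other 8c array lay above all 4c arrays. Rrm2 rose by 4.17 (SE 0.36, adjusted p = 0.000619), or at least 3.91 with the dim 4c array of experiment 2 at the lowest measurable level, and its other probe gave 2.58. Of the deoxynucleotide list 3 of 9 tested members rose and 0 fell, the others being Tk1, which salvages thymidine (2.16-fold; its other probe gave a log2 difference of 0.50, unadjusted p = 0.0753), and Rrm1, the larger subunit of the reductase (1.58-fold).

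Regulators of the G1 phase and of the p53 pathway were largely without a call. In the E2F and G1 list 1 of 25 tested members rose, Cdkn2c, an inhibitor of Cdk4 and Cdk6 (at least 2.04-fold, adjusted p = 0.0368), and 0 fell. Ccnd1, the G1 cyclin, differed by -0.28 (SE 0.13, adjusted p = 0.637), and Ccne1 by 0.27 (adjusted p = 0.71). E2f7 and E2f8, repressors tied to hepatocyte polyploidy, differed by -0.46 (adjusted p = 0.64) and 0.98 (adjusted p = 0.718), with E2f8 above background on 1 4c and 3 8c arrays. In the list of p53 and the PIDDosome, a complex that senses extra centrosomes, 0 of 17 passed in limma (median -0.04, 1 higher and 2 lower at an unadjusted p under 0.05). Its member Cdkn1a, the p53 target that blocks Cdks, was higher in 5 of 5 experiments (0.59, SE 0.14, adjusted p = 0.18). Of the DNA repair list 3 of 20 rose. Bard1, the partner of Brca1, and Rad51ap1 were above background on 0 of 5 4c arrays and rose at least 2.29-fold and 1.80-fold, and Mdc1 rose by 0.52. Of the core histone list 0 of 7 passed in limma, and 3 were higher at an unadjusted p under 0.05, beside 4.6% of all features.

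Genes outside the lists included further parts of the division machinery. These were picked after their values had been seen. Stmn1, which destabilises microtubules, rose 4.20-fold (SE of the log2 difference 0.18, adjusted p = 0.000625), and the tubulins Tubb6 at least 6.05-fold and Tuba1b by 0.68. For Tuba1b the other probe differed by 0.09 (SE 0.15, unadjusted p = 0.558). Cdkn3, a phosphatase of Cdks, rose at least 6.72-fold. Of the 13 features that rose without a symbol, 3 were described in the files as similar to centromere autoantigen H (2.84), to stathmin (2.11) and to the Ki-67 antigen (2.74). The 2 features lower in 8c cells were Stac, an adaptor protein (-1.18, SE 0.15, adjusted p = 0.0057), and LOC103692122, a locus with no symbol in the reference table (-0.87, SE 0.15, adjusted p = 0.0368). Stac was well above background on 3 4c arrays and 1 8c array, so its 8c level is mostly a bound.

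Many of these genes lay close to background in 4c cells. Of the 107 features that rose, 64 were not well above background on at least 1 4c array and 8 on none of the 4c arrays. Among the 13634 features above background on all 10 arrays 43 rose (0.315%), with a median difference of 0.76, and 0 fell. In the 6 mitotic lists together, 159 genes were listed, 124 were tested and 56 rose. Of the 62 measured on all 10 arrays 15 rose.

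The experiments differed in how large the step was. The median difference of the 107 features was 2.48, 1.16, 2.22, 1.51 and 2.52 in experiments 1 to 5. The 4c array of experiment 4, from the youngest animals, was the highest of its group for 85 of the 107, and the 8c array of experiment 2, from the oldest, was the lowest of its group for 92. An interaction of the difference with age passed for 0 of 16794 features in limma (0.0%), with 442 at an unadjusted p under 0.05 (2.63%). With 1 to 2 experiments at each age the slope rests on few experiments. In experiment 3 the 4c and 8c arrays lay on different slides, and a fit with the slide as the block, not the experiment, had 40 features higher in 8c cells. Within slide 1, 1 feature passed, and within slide 2, 0 passed (590 higher and 350 lower at an unadjusted p under 0.05, lowest adjusted p = 0.184 in limma).

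**Figure D3:**
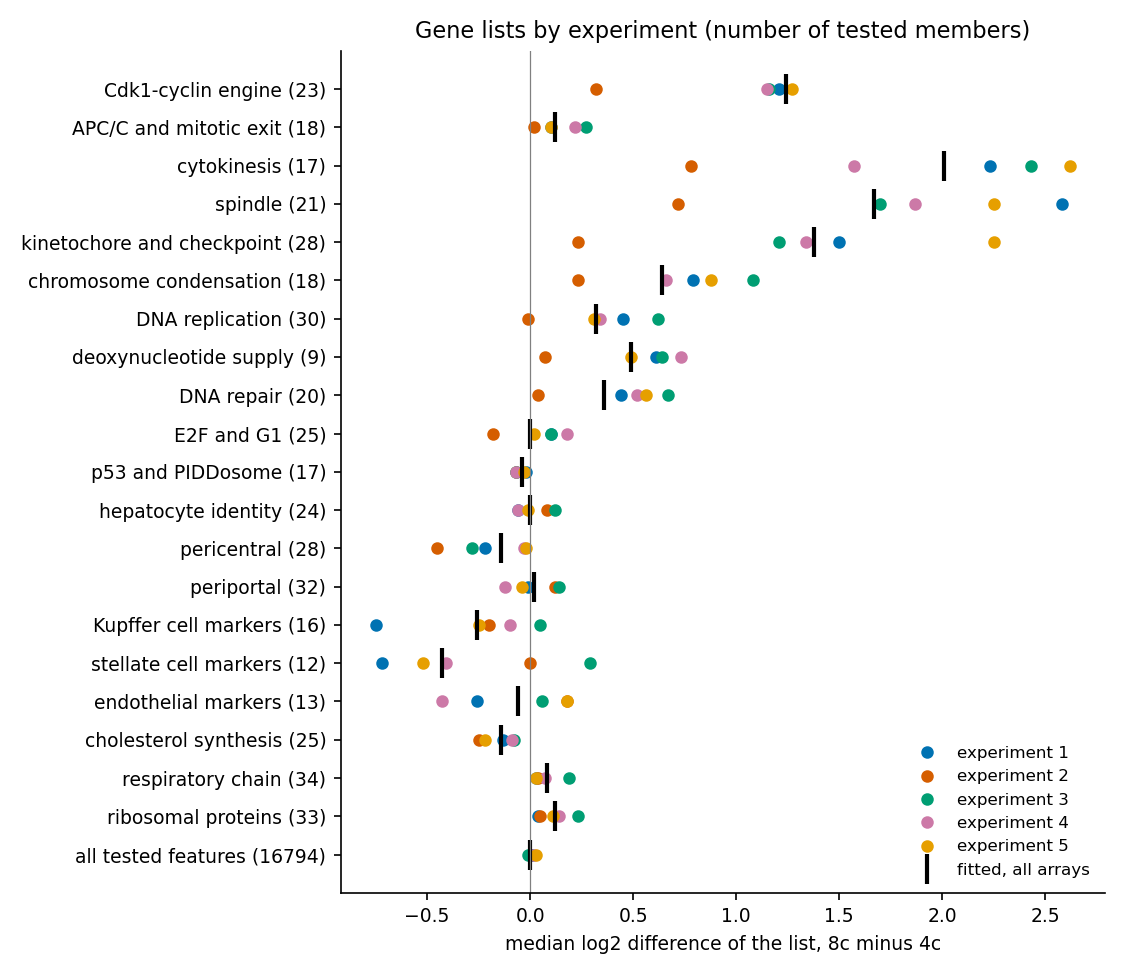
Median log2 difference of 8c minus 4c (horizontal axis) of 20 gene lists and of all tested features, with a point for each experiment, a black bar for the fit over all arrays, and the number of tested members in brackets. The 6 mitotic lists (top 6 rows) lie above 0 in all 5 experiments, with fitted medians of 0.12 to 2.01, and the hepatocyte, periportal and p53 lists have fitted medians of 0.0, 0.02 and -0.04. Over members measured on all 10 arrays the medians of the 6 mitotic lists were 0.09 to 0.63.

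No gene of the hepatocyte programme passed. The 24 genes of the hepatocyte identity list were above background on all 10 arrays, as the label has it, with a median difference of 0.0, 0 calls in limma and 0 at an unadjusted p under 0.05. Alb, albumin, had levels between 6.73 and 7.57 in 4c cells and between 6.62 and 7.44 in 8c cells, a difference of -0.08 (SE 0.14, adjusted p = 0.9). Ttr and Tf, other plasma proteins, differed by -0.08 and -0.02. In the periportal list 0 of 32 passed in limma (median 0.02, 2 higher at an unadjusted p under 0.05), and its member Ass1 of the urea cycle differed by -0.10 (SE 0.11). Afp, the fetal albumin, differed by -0.03 (SE 0.06).

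In the pericentral list 0 of 28 passed in limma (7 lower at an unadjusted p under 0.05, beside 3.19% of all features). The median was -0.14, and 9 were lower in 5 of 5 experiments, beside 4.7% of all features. Glul, which makes glutamine in the hepatocytes around the central vein, had levels of 1.27, 1.18, 1.27, 2.71 and 2.12 in 4c cells and 0.10, -0.11, -0.50, 2.20 and 1.74 in 8c cells. Each 8c array lay below its 4c partner, by more in experiments 1 to 3 than in 4 and 5, and the groups overlapped. The difference was -1.02 (SE 0.28, adjusted p = 0.272) for the brightest Glul probe, which is the one counted in the list. A further, dimmer Glul probe was well above background on 5 of 5 4c and 5 of 5 8c arrays. It gave -1.31 (SE 0.24, unadjusted p = 0.000238 in limma), so the missing call for Glul depends on the probe chosen. Slc1a2, a glutamate transporter, differed by -1.03 (SE 0.28, adjusted p = 0.284) and Rhbg, an ammonium transporter, by -0.84 (SE 0.23, adjusted p = 0.278); these were picked after their values had been seen. Cyp2e1 differed by -0.05 (SE 0.10). The list medians were -0.22, -0.45, -0.28, -0.03 and -0.02 in experiments 1 to 5. Without the 6 arrays that carried pancreatic acinar transcripts the median was 0.02. The 8c arrays left there were those of experiments 4 and 5, so the acinar arrays and experiments 1 to 3 cannot be told apart in that value.

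Those acinar transcripts, of digestive enzymes made in the pancreas, set some arrays apart. The list's median level over 26 tested members was -7.87, 1.52, -7.34, -8.16 and -7.80 in the 4c arrays of experiments 1 to 5, and -0.88, 3.70, -1.0, -8.47 and -8.12 in the 8c arrays. Its median difference was thus 6.65, 2.12 and 5.32 in experiments 1 to 3 and -0.14 and 0.28 in experiments 4 and 5, and 0 members passed in limma (1 higher at an unadjusted p under 0.05). In experiments 4 and 5 the median differences of the 107 features that rose, which were chosen on these same arrays, were 1.51 and 2.52. The part of the acinar transcripts in the result was not tested. Without the 6 arrays that carried them (2 of 2c, 1 of 4c and 3 of 8c) 0 features passed (lowest adjusted p = 0.329 in limma). At an unadjusted p under 0.05, 453 were higher and 383 lower. All 107 kept their direction with a median of 2.09. The 8c arrays left were those of experiments 4 and 5, where all 107 were higher already, so the kept direction adds no support.

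Markers of other liver cells were low and did not pass. In the Kupffer cell list 0 of 16 tested members of 22 passed in limma (median -0.26, 1 lower at an unadjusted p under 0.05), and its median level ran from -5.59 to -4.37 in 4c arrays and from -6.02 to -4.77 in 8c arrays. Clec4f, which defines Kupffer cells, differed by -1.38 (SE 0.80, adjusted p = 0.686). In the stellate list 0 of 12 tested members of 20 passed in limma (median -0.43, 1 lower at an unadjusted p under 0.05), and Colec11 differed by -0.97 (SE 0.76). In the endothelial list 0 of 13 tested members of 20 passed in limma, and 0 at an unadjusted p under 0.05 (median -0.06). The median level of the stellate list ran from -6.41 to -4.22 in 4c arrays and from -7.24 to -3.90 in 8c arrays, and that of the endothelial list from -6.25 to -4.60 and from -6.88 to -4.46. Stab2, of sinusoidal endothelium, was well above background on 0 4c arrays and 2 8c arrays. In limma 0 of 6 tested cholangiocyte, 0 of 5 lymphocyte and 0 of 6 major histocompatibility complex class II genes passed. Their medians were -0.03, 0.01 and -0.14, and the cholangiocyte differences ran from -0.37 to 1.41. In bulk RNA fewer cells of a type and less RNA per cell cannot be told apart, and the part of these cells in the differences above was not tested.

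Metabolic, stress and signalling lists gave no call either. Of the cholesterol synthesis list 0 of 25 passed in limma (median -0.14, 11 lower at an unadjusted p under 0.05, beside 3.19% of all features), and 13 were lower in 5 of 5 experiments, beside 4.7% of all features, among them Hmgcs1, which makes the precursor of mevalonate (-0.29, SE 0.09, adjusted p = 0.428). Of the respiratory chain genes 0 of 34 passed in limma (median 0.08), and of the ribosomal protein genes 0 of 33 (median 0.12). At an unadjusted p under 0.05, 3 and 4 members of these lists were higher, beside 4.6% of all features. In 5 of 5 experiments 12 and 16 members were higher, beside 8.83% of all features. The cytochrome P450 list had 0 calls among 27 genes in limma, with 1 higher and 3 lower at an unadjusted p under 0.05. The same test gave 0 calls in the lists of fatty acid synthesis (19 tested, 2 lower at an unadjusted p under 0.05), fatty acid oxidation (22, 1 lower), the unfolded protein response (18, 1 higher), immediate early genes (17, 2 lower), the interferon response (17, 1 higher and 2 lower), YAP targets (11, 1 higher and 2 lower) and the clock (12, 1 lower). In 2 of the 27 cytochrome P450 genes and 1 of the 17 interferon genes every 8c array lay below every 4c array, beside 0.22% of all features. The lowest difference in the interferon list was -1.24. In 5 of 5 experiments 4 cytochrome P450 genes were lower, beside 4.7% of all features, and 1 was higher. Ccn1, a YAP target, was lower in 5 of 5 experiments (-0.51, SE 0.15, adjusted p = 0.345).

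For 28 of the 124 tested mitotic genes the second step of polyploidization differed from the first. In the same fit, the comparison of 4c with 2c cells had 47 features higher (0.28%) and 175 lower (1.04%), and of the 124 tested mitotic genes 0 were higher and 1 was lower in 4c cells. The contrast of both steps, (8c minus 4c) minus (4c minus 2c), was above 0 for 64 features (0.381%) and below 0 for 3 (0.0179%) in limma, the 28 mitotic genes among those above 0. Of the 3 features below 0, 1 was a member of the interferon list. Both steps share the 4c arrays, so an error there enters them with opposite sign. For Cdk1 the first step was -1.30 (SE 0.34), the second 4.29 and the contrast 5.59 (SE 0.59, adjusted p = 0.0116). With dim arrays set to the lowest measurable level of the array, all 124 tested mitotic genes, whether they passed or not, had a median of -0.24 in 4c and 0.57 in 8c relative to 2c cells. Of these genes 109 had a higher mean in 8c than in 2c cells, and 99 a lower mean in 4c than in 2c cells. A gene could enter the 124 through bright 8c arrays alone, so the filter favours a high count in 8c cells. No such count was made over all tested features, so the counts are a description only.

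**Figure D4:**
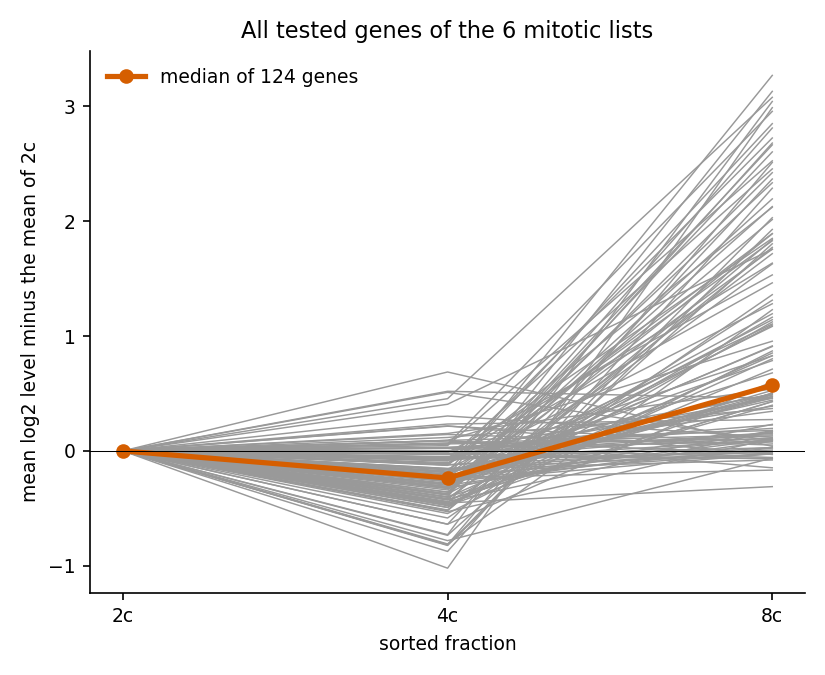
Mean log2 level (vertical axis) of the 124 tested genes of the 6 mitotic lists (grey lines), relative to their mean in 2c cells, in the sorted 2c, 4c and 8c fractions (horizontal axis), with dim arrays set to the array's lowest measurable level. The orange line is the median, -0.24 in 4c and 0.57 in 8c cells. A gene could be tested through bright 8c arrays alone.

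RefSeq promoters of the GRCr8 assembly, 250 bases before to 50 after the start, were matched by symbol for 47 of the 56 mitotic genes that rose. They are shown for Cdk1, Cdc20 and Top2a, which hold the CHR and CCAAT letters named above, for Ccnb1, which has CCAAT matches only, and for Lig1, a replication gene with an E2F match. The Cdk1 promoter holds 1 E2F match as well. Capitals mark matches on either strand to the CHR (TTTGAA or TTCGAA), to CCAAT, or to an E2F site (TTTCCCGC, TTTGGCGC, TTTCGCGC, TTTGCCGC or TTTGGCGG).
Cdk1 promoter, chr20.0:19265043.0-19265342.0 (GRCr8, plus strand): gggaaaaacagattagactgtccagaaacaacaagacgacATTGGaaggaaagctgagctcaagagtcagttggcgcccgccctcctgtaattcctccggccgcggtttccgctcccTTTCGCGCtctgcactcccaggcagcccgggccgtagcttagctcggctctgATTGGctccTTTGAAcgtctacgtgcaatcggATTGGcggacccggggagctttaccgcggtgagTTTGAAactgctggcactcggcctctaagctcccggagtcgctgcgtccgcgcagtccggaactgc
Cdc20 promoter, chr5.0:137255750.0-137256049.0 (GRCr8, minus strand): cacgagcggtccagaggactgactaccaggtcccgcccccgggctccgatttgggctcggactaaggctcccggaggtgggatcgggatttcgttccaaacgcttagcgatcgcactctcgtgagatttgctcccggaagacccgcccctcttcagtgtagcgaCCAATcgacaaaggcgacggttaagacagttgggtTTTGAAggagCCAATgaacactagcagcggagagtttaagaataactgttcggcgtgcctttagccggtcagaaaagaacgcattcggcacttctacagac
Top2a promoter, chr10.0:84473044.0-84473343.0 (GRCr8, minus strand): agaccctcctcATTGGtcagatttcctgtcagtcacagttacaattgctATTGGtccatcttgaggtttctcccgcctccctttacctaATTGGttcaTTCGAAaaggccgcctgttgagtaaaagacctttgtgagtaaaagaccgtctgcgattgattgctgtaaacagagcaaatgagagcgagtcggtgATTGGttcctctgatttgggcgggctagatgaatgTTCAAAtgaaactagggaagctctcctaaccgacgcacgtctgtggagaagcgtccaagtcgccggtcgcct
Ccnb1 promoter, chr2.0:33655176.0-33655475.0 (GRCr8, minus strand): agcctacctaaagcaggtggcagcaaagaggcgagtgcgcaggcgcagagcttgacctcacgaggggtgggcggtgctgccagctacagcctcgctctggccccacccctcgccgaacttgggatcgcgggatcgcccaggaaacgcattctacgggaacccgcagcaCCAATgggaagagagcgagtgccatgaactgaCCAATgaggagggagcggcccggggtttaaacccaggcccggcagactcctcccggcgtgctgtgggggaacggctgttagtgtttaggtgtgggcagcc
Lig1 promoter, chr1.0:83242920.0-83243219.0 (GRCr8, plus strand): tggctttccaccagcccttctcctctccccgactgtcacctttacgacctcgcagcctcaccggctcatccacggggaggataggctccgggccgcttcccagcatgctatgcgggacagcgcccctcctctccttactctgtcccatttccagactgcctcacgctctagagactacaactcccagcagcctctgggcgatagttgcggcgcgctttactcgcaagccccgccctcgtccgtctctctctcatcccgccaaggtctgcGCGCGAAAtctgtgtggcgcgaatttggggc
Of the 47 promoters 33 held a CHR match (70.2%), beside 49.2% of 59 promoters of tested mitotic genes that did not pass, 14.3% of 9795 tested genes and 19.5% of all promoters in the table. A CCAAT box stood in 66.0%, 59.3%, 38.8% and 37.7% of the same sets. A CHR match with 2 or more CCAAT boxes was held by 38.3%, 18.6%, 2.13% and 2.34%. E2F matches were rarer, at 4.26%, 11.9%, 4.86% and 2.73%. Of the 6 replication and nucleotide genes with a promoter, 1 held a CHR match and 2 an E2F match. CHR and CCAAT matches can overlap in a stretch such as TTTGAATTGG, and a match shows only that these letters lie in the window.

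**Figure D5:**
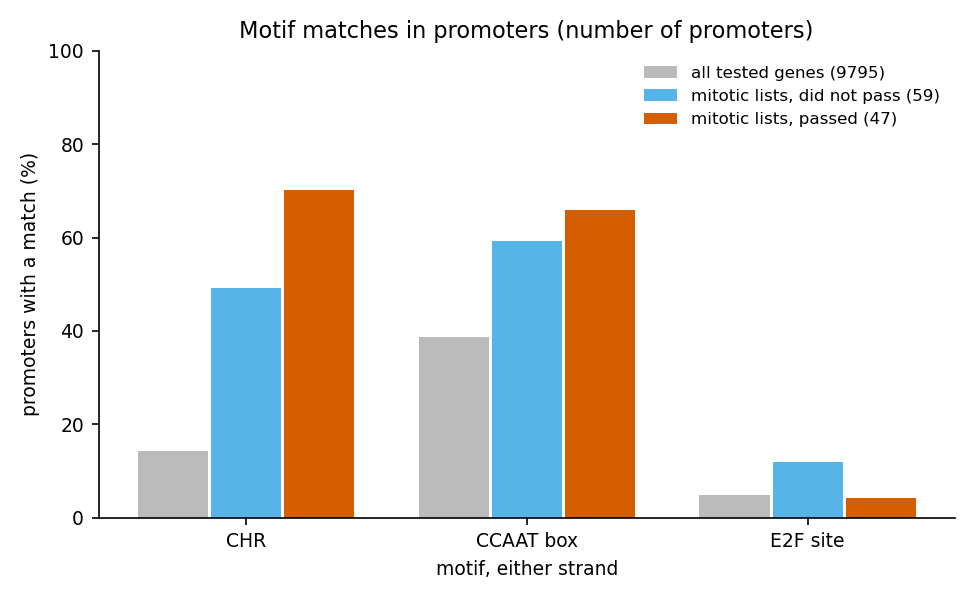
Percent of promoters with a match (vertical axis) to the CHR, the CCAAT box and the E2F site for all tested genes, mitotic genes that did not pass, and mitotic genes that passed. The CHR share is 14.3%, 49.2% and 70.2% in these sets.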

How the data were processed

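RNA of sorted hepatocytes was labelled with Cy3 and hybridised to 1 one-colour Agilent array per sample. The deposited files give spot intensity on a linear scale; the processed signal is the authors' background-corrected intensity, read with Agilent Feature Extraction 11.5.1.1 per the file headers, while the submitters' processing notes name 10.7.3.1. Each array held 62976 spots, and 18034 to 21608 of 45598 probes were well above background; the number of arrays limits the precision. Control and outlier spots were left out, spots averaged, and log2 values centred on the array's 75th percentile over the 16211 probes that passed the software's background flag on every array. Features well above background on at least 5 of 15 arrays were tested, with the brightest probe for a gene.

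limma 3.58.1 in R 4.3.3 was fitted with fraction and experiment (two-sided, Benjamini-Hochberg over 16794 features, 11820 with a symbol); tables and plots used Python 3.11.15. The experiment pairs the arrays: deviations from the group means of 4c and 8c arrays of 1 experiment correlated at 0.677, 0.77, 0.102, 0.744 and 0.544. Where the lower group had dim arrays, folds are lower bounds with these at the array's lowest signal well above background. Probes were named through RefSeq accessions (21109), symbols (6688), descriptions (1787) or synonyms (270); 15744 kept the file's name. Probe positions are rn4. The procedure was tested on simulated data.

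Named were the 15 largest rises and falls that passed, moved 1 way in 5 of 5 experiments and were above background on all arrays of 4c or of 8c (0 falls did), members of the lists that passed, the 2 brightest of a list with no call, and a fixed set of genes. The members and lists were chosen with earlier results of these data known. Lists are described by counts and medians, with no set test. Alternatives covered the block, the arrays, scaling, background, filter, probes and the deposited value table.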

Additional observations from a re-analysis of the deposited data

Results flagged for a closer look

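Of 196 sets of 5 experiment differences (8c minus 4c), 18 had an experiment standing apart from the other 4 by Dixon's criterion, whose critical ratio is 0.71; chance flags about 1 in 20. Experiment 4 stood low for Cdk1 (2.22, others 4.6 to 5.0), Cdca3 (2.13, others 4.09 to 4.81) and Mki67 (1.9, others 3.24 to 3.63). Experiment 2 stood low for Cks2 (0.11), Pbk (0.27), Cenpq (0.22), Ska2 (0.11), Rrm1 (0.2), Suv39h1 (0.12) and E2f8 (-2.22, others 1.31 to 2.05). It also stood low for the median of the Cdk1 and cyclin list (0.32, others 1.15 to 1.27). Experiment 1 stood high for Cdkn2c (3.61, others 1.01 to 1.61) and for the median of the immediate early list (0.13, others -0.27 to -0.19). Experiment 3, whose 4c and 8c arrays lay on different slides, stood low for Cd3d (-1.48) and for the median of the lymphocyte list (-0.49), and high for the brightest Aurka probe (0.48) and for the medians of the cytochrome P450 (0.26) and respiratory chain (0.19) lists.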

How the results depend on the processing

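The number of features that passed depended on the fit. Higher and lower in 8c cells were 107 and 2 in the reported fit, and 2 and 0 with no replicate block, 0 and 0 with the 4c and 8c arrays alone and the replicate block, 40 and 0 with the slide as block, 62 and 1 with normexp, 69 and 4 with no filter on dim probes, 39 and 0 with probes well above background on all arrays, 1 and 0 within slide 1, 0 and 0 within slide 2, 0 and 0 without 6 arrays that carried acinar transcripts, and 1 and 0 without experiments 1 and 2. Leaving out 1 experiment gave 49 to 121 higher and 0 to 5 lower. Quantile, median and all-probe percentile scaling, the mean of a gene's probes and the value table gave 101 to 108 higher and 2 lower. All 107 kept their direction wherever they were tested (43 of them with probes above background on all arrays). In the fits on fewer experiments this adds no support, because all 107 were chosen features that rose in 5 of 5 experiments. Under normexp, with an offset of 50, their median fell from 2.04 to 0.6. For Aurka, the mean of its probes gave 1.0 in place of -0.06. The median of the p53 and PIDDosome list was 0.0 without replicate 3. That of the pericentral list was 0.02 without the acinar arrays, a fit with the 8c arrays of experiments 4 and 5 alone. The cause of these changes was not tested, though the smaller fits have fewer arrays. Quantile normalization gave 44 features above and 4 below 0 for the contrast of the steps. Signal over background limits the size of rises from dim 4c levels.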

Other observations

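RT1-T24-1, a gene of the rat major histocompatibility complex class I region, rose 7.01-fold outside any list (log2 difference 2.81, SE 0.47, adjusted p = 0.0271 in limma). Its levels were -5.35, -3.85, -4.25, -2.94 and -4.75 in 4c cells and -1.01, -2.69, -1.53, -1.19 and -0.69 in 8c cells, all above background and with no overlap. Class I genes are near-identical copies of each other, so the probe may read more than its named gene. It was picked after its values had been seen.

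A small group rose in 8c cells after being lower in 4c than in 2c cells, without belonging to the cell cycle lists. Pabpc1l2a, named as a poly(A)-binding protein, had levels between 3.12 and 3.51 in 4c cells and between 3.38 and 4.32 in 8c cells (0.66, SE 0.11, adjusted p = 0.0285), after a first step of -0.65 (adjusted p = 0.0348). Tmem253, a membrane protein, rose by 0.64 (adjusted p = 0.0146) after -0.61 (adjusted p = 0.0276), and LOC102550008, a locus without a given function, rose by 1.12 (adjusted p = 0.013) after -1.25 (adjusted p = 0.0147). Mean levels in 8c and 2c cells were 4.00 and 3.99 for Pabpc1l2a, -1.95 and -1.97 for Tmem253, and -1.73 and -1.60 for LOC102550008. The steps share the 4c arrays, and these genes were picked after their values had been seen.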
